A study of Mus musculus with 11 samples.

Results

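The 32 genes described here make cholesterol, carry it into, within and out of the cell, or control these steps through the SREBP transcription factors. They were taken by name from a list of this pathway, and all 32 were found among the 53801 gene identifiers counted. The cells were neural stem and progenitor cells (NPCs) from the brains of mouse embryos at E13.5 (C57BL/6 mixed with 129SV), grown as neurospheres, and total RNA was sequenced in 11 libraries, each from 1 embryo's culture and named by the embryo (SMH_ and a number). All 3 groups carried *Smg6* Flox/Flox, that is, loxP sites in the gene of SMG6, an endonuclease of nonsense-mediated mRNA decay. The Ctr group (embryos SMH_128, SMH_132 and SMH_133) carried RosaCreER tg/+ as well and received no 4-hydroxytamoxifen (4-OHT). The Ctr + 4-OHT group (embryos SMH_125, SMH_126, SMH_129 and SMH_131) was RosaCreER +/+, so it had no recombinase, and received 1 µM 4-OHT for 3 days. The *Smg6*-iKO group (embryos SMH_127, SMH_128, SMH_132 and SMH_133) was RosaCreER tg/+ and received the same 4-OHT. The 3 days are those of the labels, while the study elsewhere describes 4-OHT as present over the 6 days up to the taking of RNA, so the length of exposure is uncertain. CreER was expressed from the Rosa26 locus, which is active in most cell types, and not from a promoter of neural cells. Between Ctr + 4-OHT and Ctr, the effects of 4-OHT, of CreER and of the embryos cannot be told apart, while embryos SMH_128, SMH_132 and SMH_133 gave both a Ctr and an *Smg6*-iKO culture.

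Cholesterol is built from acetyl-CoA through mevalonate, isoprenoid units, squalene and lanosterol. When membranes of the endoplasmic reticulum hold little cholesterol, SCAP escorts the SREBP proteins to the Golgi, where they are cut, and the freed part switches on synthesis genes; when sterol is ample, the INSIG proteins hold SCAP back. Surplus sterol instead activates the LXR receptors, which switch on the export pumps ABCA1 and ABCG1. In the developing brain, sheltered from the cholesterol of the blood, progenitors depend largely on their own synthesis. Tamoxifen and its relatives, 4-OHT among them, are known to bind EBP, an enzyme of late synthesis, besides the estrogen receptor.

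SREBPs are known to act beside NF-Y, which recognises CCAAT. A promoter was listed by RefSeq (GRCm38.p6) for 26 of the 32 genes, and none was listed for *Fdps*, *Fdft1*, *Sqle*, *Stard4*, *Npc1* and *Abcg1*. The windows reached from 250 bases before the start site to 50 bases after it, and both strands were searched. For 5 of the 26 genes RefSeq listed several promoters (*Srebf1*, *Scap*, *Insig2*, *Pmvk* and *Dhcr7*), and the one nearest to the 5′ end of the gene in the count files was used, so a match or its absence holds for that window. CCAAT was found in 22 of the 26 windows (84.6%), against 37.4% of all 32851 promoters, and *Scap*, *Acat2*, *Dhcr7* and *Abca1* were the 4 without it. The 32851 were all promoters listed, with several for some genes and regardless of expression. Each of the 26 was the single window used for a gene expressed in these cells, so the sets compared are not alike. The sterol regulatory element TCACNCCAC was in 1 of the 26 (3.85%), that of *Hmgcs1*, against 1.24% of all promoters. The E-box CACGTG was in 5 of the 26 (19.2%; *Scap*, *Insig1*, *Hsd17b7*, *Sc5d* and *Abca1*), against 7.15% of all. The DR4 element of LXR, as a perfect direct repeat, was in 0 of the 26 windows and in 0.0152% of all. It matched only 5 of the 32851 promoters, so its absence from 26 windows was close to certain beforehand. Looser forms of the element were not searched, so a window without a match may still hold one. These counts describe letters in a window and not binding, and the listed start of *Tm7sf2* lay 9347 bases from the 5′ end of the gene in the count files.

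The 250 bases before the start site are shown for 5 genes that stand for the behaviours described below, *Hmgcs1* (chr13:119690101-119690350, plus strand), *Mvk* (chr5:114444019-114444268, plus strand) and *Nsdhl* (chrX:72918271-72918520, plus strand) for synthesis, *Fasn* (chr11:120824548-120824797, minus strand) for the fatty acid branch and *Abca1* (chr4:53159896-53160145, minus strand) for efflux. They read 5′ to 3′ on the strand of the gene. Capitals mark CCAAT or its reverse complement, the sterol element in *Hmgcs1* and the E-box in *Abca1*. In *Fasn*, 2 of the 3 CCAAT matches overlap on opposite strands.
Hmgcs1: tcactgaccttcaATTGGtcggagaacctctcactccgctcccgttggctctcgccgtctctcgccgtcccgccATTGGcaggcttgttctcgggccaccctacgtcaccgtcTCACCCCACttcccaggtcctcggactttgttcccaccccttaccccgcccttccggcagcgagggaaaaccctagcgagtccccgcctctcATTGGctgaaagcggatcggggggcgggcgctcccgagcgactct
Mvk: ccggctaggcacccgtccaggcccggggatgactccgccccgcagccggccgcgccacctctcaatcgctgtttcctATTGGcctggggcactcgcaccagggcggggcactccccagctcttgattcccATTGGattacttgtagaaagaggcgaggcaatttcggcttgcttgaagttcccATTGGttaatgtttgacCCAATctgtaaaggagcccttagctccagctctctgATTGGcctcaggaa
Nsdhl: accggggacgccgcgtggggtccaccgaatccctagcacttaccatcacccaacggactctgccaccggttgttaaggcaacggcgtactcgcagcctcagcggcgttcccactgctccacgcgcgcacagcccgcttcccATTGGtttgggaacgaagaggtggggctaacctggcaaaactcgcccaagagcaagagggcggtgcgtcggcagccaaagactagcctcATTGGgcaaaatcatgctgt
Fasn: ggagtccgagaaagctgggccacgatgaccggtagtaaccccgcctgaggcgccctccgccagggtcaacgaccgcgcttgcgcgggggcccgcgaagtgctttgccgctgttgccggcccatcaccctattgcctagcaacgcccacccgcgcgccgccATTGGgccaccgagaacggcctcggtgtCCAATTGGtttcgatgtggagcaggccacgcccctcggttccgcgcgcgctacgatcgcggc
Abca1: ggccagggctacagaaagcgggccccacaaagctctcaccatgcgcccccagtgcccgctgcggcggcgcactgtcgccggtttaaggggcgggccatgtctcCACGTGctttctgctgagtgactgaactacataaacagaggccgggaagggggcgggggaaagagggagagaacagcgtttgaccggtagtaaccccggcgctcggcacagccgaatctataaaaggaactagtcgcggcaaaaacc
*Mvk* held 5 CCAAT matches, *Hmgcs1* 3 beside its sterol element, *Nsdhl* 2 and *Abca1* none.

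The libraries held between 26418249 and 33756875 counted reads. Expression is given as CPM, counts relative to the total of the library, scaled by TMM over all 11 libraries. A gene was called where edgeR's quasi-likelihood test, fitted to the 2 groups compared, gave an adjusted p under 0.05 over all genes tested. NPC markers summed to between 4270 and 5390 CPM in every library, neuron markers to between 1430 and 2350 CPM, and the 4 microglia markers stayed under 1 CPM each. *Esr1* encodes an estrogen receptor, a part of which CreER carries, and lay between 3.89 and 4.71 CPM in both CreER groups and at most at 0.283 CPM in Ctr + 4-OHT. *Smg6* counts over the whole gene did not differ in a called way between *Smg6*-iKO and Ctr + 4-OHT (log2 fold change -0.059, adjusted p = 0.703 from edgeR) or Ctr (-0.17, adjusted p = 0.148), and such totals do not show loss of the floxed part.

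All 32 genes passed the filter on low counts in each of the 3 comparisons. Per kb of gene length, the highest of them was *Hmgcs1*, the enzyme that makes HMG-CoA, with a mean over the 3 groups of 337 CPM per kb. *Acly*, which makes cytosolic acetyl-CoA, followed with 105.5 CPM per kb, then *Insig1* with 97.9, *Cyp51* with 77.1, *Acat2* with 60.0 and *Fasn* with 57.8 CPM per kb. The lowest were *Mylip*, a ubiquitin ligase that limits the uptake of lipoprotein cholesterol, with 1.68 CPM per kb, and *Idi1* with 1.87 CPM per kb. Reads on bases shared with another gene were not counted. This touches *Tm7sf2* (47.2% of its exonic bases shared with other genes), *Fdps* (26.7%) and, slightly, *Srebf1* (1.17%), so their levels per kb may be understated. Reads that mapped to several positions were not counted either, and how many each gene lost was not examined. The ranking by level, with *Idi1* near the bottom, holds for counted reads only.

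**Figure D1:**
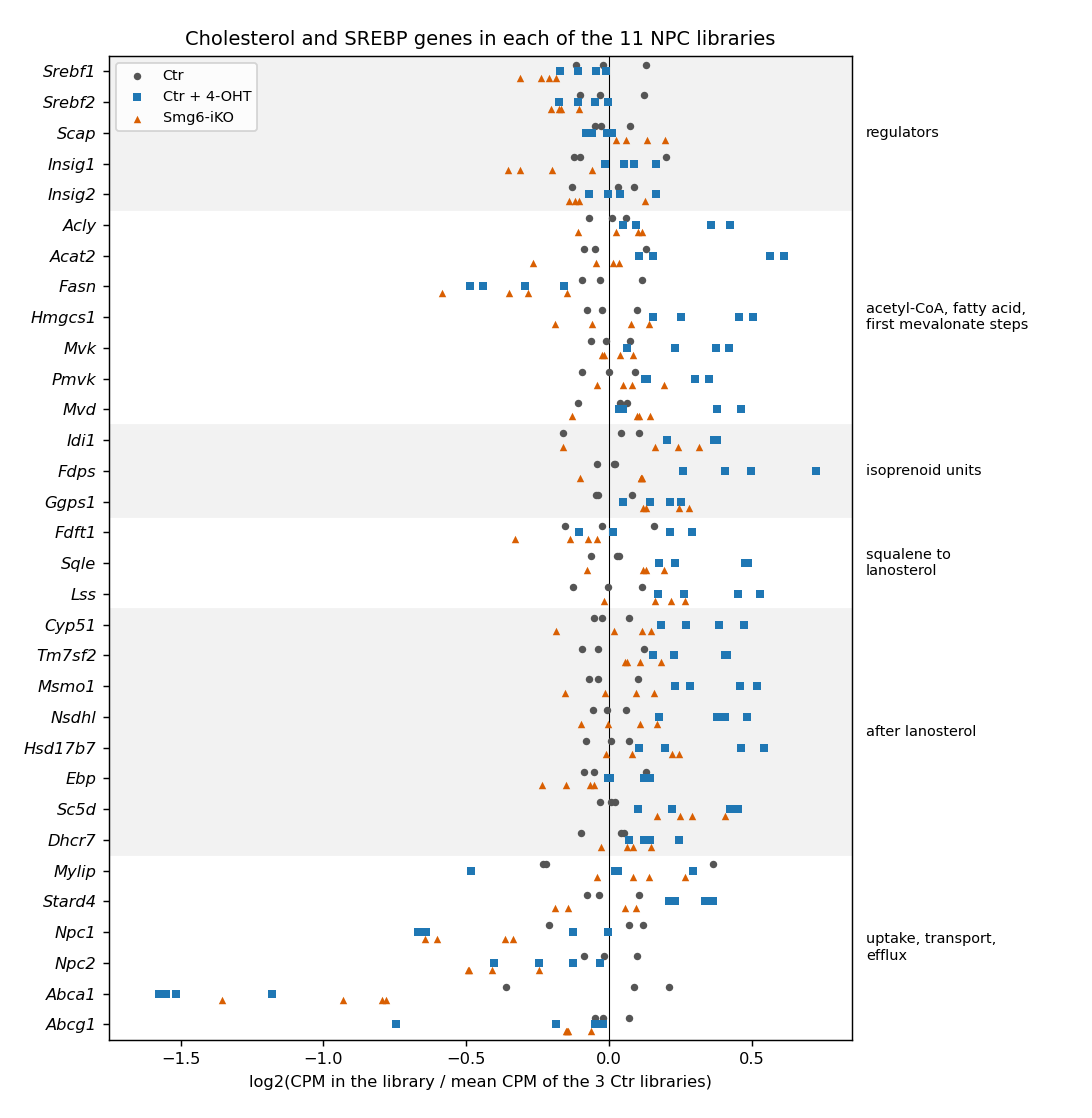
Each point is 1 library's log2 ratio of CPM to the mean of the 3 Ctr libraries, for the 32 genes in pathway order (grey circles Ctr, blue squares Ctr + 4-OHT, orange triangles *Smg6*-iKO). The Ctr + 4-OHT points lie to the right of 0 for nearly all synthesis genes and far to the left for *Abca1*.

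The control groups were compared first, since in neither was recombination at *Smg6* induced. Cells of the Ctr + 4-OHT group had higher values than Ctr for most synthesis genes, by moderate amounts, and a much lower level of *Abca1*, the pump that loads cholesterol onto apolipoproteins. *Abca1* was the 1 gene of the 32 that was called (3.12%, against 0.221% of the 17665 genes tested). Of the 32, 23 had a log2 fold change above 0, with a median of 0.24, against 51.2% of all genes and a median of 0.0045. In 14 of them each Ctr + 4-OHT library exceeded each Ctr library (43.8%, against 3.80% of all genes), and in 2, *Abca1* and *Fasn*, each lay below (6.25%, against 4.91%). At an unadjusted p under 0.05 there were 17 genes with higher and 2 with lower values, where 3.27% and 5.01% of all genes passed. The 18 enzymes from *Hmgcs1* to *Dhcr7* all had a log2 fold change above 0 (median 0.32), 13 of them without overlap of the groups, but edgeR called 0 of the 18 while 14 had an unadjusted p under 0.05. With DESeq2's Wald test 4 of the 18 were called, *Fdps*, *Cyp51*, *Msmo1* and *Nsdhl*, and 0.825% of all genes it tested. Without the libraries of embryos SMH_125 and SMH_131 the median of the 32 genes was 0.10, *Fdft1* of the 18 lay below 0, 11 of the 19 values with an unadjusted p under 0.05 were over 1.5 times smaller, and *Abca1* was still called.

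*Smg6*-iKO was next compared with Ctr, its own genotype without 4-OHT, so that 4-OHT exposure and the deletion of *Smg6* changed together and their parts cannot be told apart. The genes that fell were 3 of sterol transport and efflux and 1 regulator. Of the 18 enzymes from *Hmgcs1* to *Dhcr7*, 15 had a log2 fold change above 0 (median 0.066, against 51.0% of all genes above 0) and 1, *Sc5d*, was called, while 11 lay above 0 without the Ctr library of embryo SMH_132 and 10 under the embryo block with the length correction. Of the 32 genes, 5 were called (15.6%, against 9.25% of 17974 genes). *Abca1*, *Npc1*, *Npc2* and *Srebf1* fell, where 4.98% of all genes were called lower, and *Sc5d* rose, where 4.27% were called higher. At an unadjusted p under 0.05 there were 9 of the 32 (28.1%), against 26.9%. Over all 32, the median log2 fold change was 0.028, with 18 above 0, against a median of 0.0055 and 51.0% above 0 over all genes. This median had no stable sign: it was -0.0077 with 13 above 0 without the Ctr library of embryo SMH_132, 0.081 with 21 above 0 without its *Smg6*-iKO library, -0.018 with 14 above 0 under the length correction and -0.040 with 12 above 0 when the embryo block was added to that correction. Values of *Smg6*-iKO lay below those of Ctr without overlap in 7 genes (21.9%, against 11.9% of all genes) and above them in 2 (6.25%, against 11.4%). With the embryo as a block, 10 of the 32 were called (31.2%, against 21.4% of all genes), 2 higher and 8 lower. The count of 5 was 2 without the Ctr library of embryo SMH_128 and 3 without the Ctr library of SMH_132, the Ctr library of SMH_133 or the *Smg6*-iKO library of SMH_133.

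The comparison of *Smg6*-iKO with Ctr + 4-OHT, both under 4-OHT, differs in CreER, in the loss of *Smg6* and in the embryos. It shares libraries with both comparisons above, so its values stand beside theirs and not as a further result. Of the 18 enzymes from *Hmgcs1* to *Dhcr7*, 17 had lower values in *Smg6*-iKO and *Ggps1* did not (0.040), and 26 of the 32 had a log2 fold change under 0 (median -0.18, where 52.8% of all genes lay above 0 and their median was 0.012). Without the libraries of embryos SMH_125 and SMH_131 the median of the 32 was -0.12, and 7 of the 17 values with an unadjusted p under 0.05 were over 1.5 times smaller in size, that of *Acat2* at -0.19 and that of *Fdft1* at -0.096, while 1 of the 17, *Npc2*, was over 1.5 times larger. edgeR called 0 of the 32, where it called 1.17% of the 17558 genes, while 17 of the 32 had an unadjusted p under 0.05 (15 lower and 2 higher, against 7.67% and 9.02% of all genes). DESeq2's Wald test called 9 of the 32, with 6.06% of the genes it tested called, and limma-voom called 0. *Smg6*-iKO lay below Ctr + 4-OHT without overlap in 10 genes (31.2%, against 5.99% of all genes) and above it in 1, *Scap* (3.12%, against 5.03%).

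**Figure D2:**
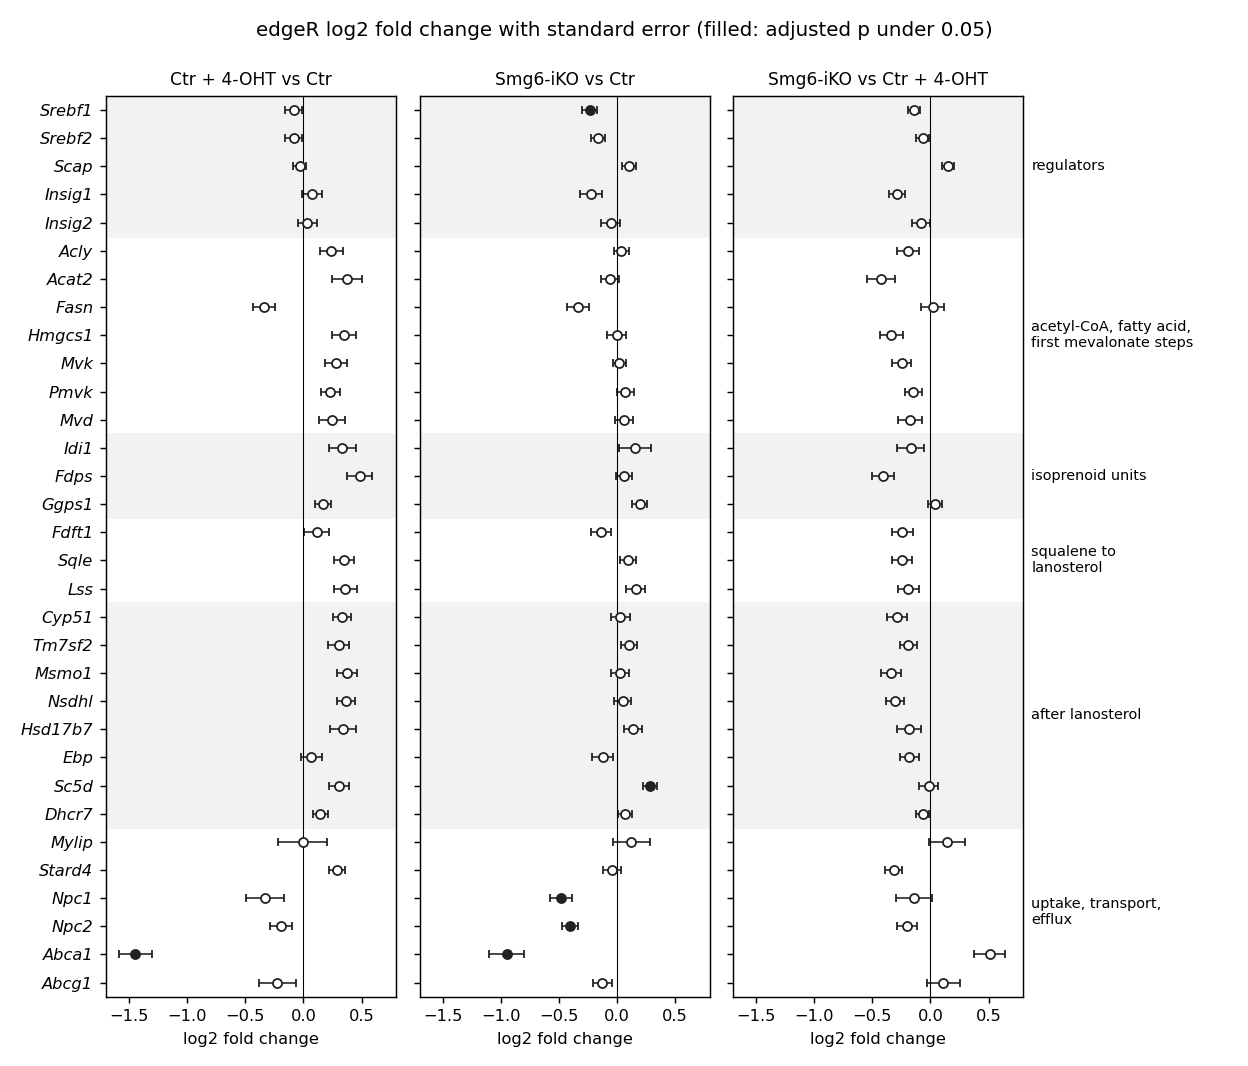
Log2 fold changes from edgeR with their standard errors (bars) for the 32 genes in the 3 comparisons, with filled symbols at an adjusted p under 0.05. *Abca1* is filled on the left of the panels against Ctr, at -1.45 and -0.95, and no gene is filled in the panel against Ctr + 4-OHT.

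*Abca1* had the largest fold change of the 32 genes in each comparison. *Abca1* had 120.3, 131.1 and 88.2 CPM in the Ctr libraries of embryos SMH_128, SMH_132 and SMH_133. In Ctr + 4-OHT it had 39.6, 49.97, 38.6 and 37.9 CPM (embryos SMH_125, SMH_126, SMH_129 and SMH_131), and in *Smg6*-iKO 59.4, 65.8, 65.2 and 44.2 CPM (embryos SMH_127, SMH_128, SMH_132 and SMH_133). Each library given 4-OHT was thus below each Ctr library, and *Smg6*-iKO overlapped Ctr + 4-OHT through embryo SMH_133 alone. Against Ctr, *Abca1* fell to 0.367 of its level in Ctr + 4-OHT, a log2 fold change of -1.45 (SE 0.14, adjusted p = 0.00592 from edgeR), and between -1.59 and -1.33 when any library was dropped. That call was lost without the Ctr library of embryo SMH_128 (adjusted p = 0.0504). In *Smg6*-iKO it fell by 0.95 on the log2 scale against Ctr (SE 0.15, adjusted p = 0.00562), and stayed called with each library left out. Between *Smg6*-iKO and Ctr + 4-OHT the log2 fold change was 0.51 (SE 0.13, adjusted p = 0.099), called by DESeq2 (adjusted p = 0.0128) and, in edgeR, without the filter on low counts (adjusted p = 0.0122) or without the *Smg6*-iKO library of embryo SMH_133 (adjusted p = 0.0447).

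*Npc1* and *Npc2* encode the membrane protein and the soluble protein that pass cholesterol out of lysosomes. *Npc1* had 188, 182 and 149.5 CPM in Ctr, 109, 159, 173 and 111 CPM in Ctr + 4-OHT, and 111, 134.5, 137 and 114 CPM in *Smg6*-iKO, in the embryo order above. The *Smg6*-iKO libraries were all below Ctr, whereas Ctr + 4-OHT was split, with embryos SMH_125 and SMH_131 low and SMH_126 and SMH_129 within or near the Ctr range. Its fall in *Smg6*-iKO against Ctr was -0.48 on the log2 scale (SE 0.097, adjusted p = 0.0157 from edgeR), called in 4 of the 7 fits that left a library out and not without the Ctr libraries of SMH_128 or SMH_132 or the *Smg6*-iKO library of SMH_133. *Npc2* had 292, 269 and 256 CPM in Ctr, 229.7, 249.8, 267 and 206 CPM in Ctr + 4-OHT, and 194, 230.0, 205 and 193.5 CPM in *Smg6*-iKO. Again each *Smg6*-iKO library lay below each Ctr library, and Ctr + 4-OHT overlapped both. *Npc2* fell by 0.40 against Ctr (SE 0.073, adjusted p = 0.00968 from edgeR), called in 7 of 7 such fits. Against Ctr + 4-OHT *Npc1* had -0.14 (adjusted p = 0.691) and *Npc2* -0.20 (SE 0.087, adjusted p = 0.28), and without the libraries of embryos SMH_125 and SMH_131 they had -0.42 (adjusted p = 0.0605) and -0.33 (adjusted p = 0.0695).

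*Stard4*, a soluble carrier that moves cholesterol between membranes and an SREBP target, went with the synthesis genes instead. It had 123, 112 and 108 CPM in Ctr, 147, 132.4, 134 and 144 CPM in Ctr + 4-OHT, and 122, 119, 100.3 and 104 CPM in *Smg6*-iKO. Ctr + 4-OHT was above both other groups without overlap. Its log2 fold change was 0.29 in Ctr + 4-OHT against Ctr (SE 0.067, adjusted p = 0.222 from edgeR) and -0.32 in *Smg6*-iKO against Ctr + 4-OHT (SE 0.071, adjusted p = 0.0682; DESeq2 adjusted p = 0.00478). *Abcg1*, the pump that exports cholesterol to HDL, had a mean of 11.7 CPM in Ctr (SD 0.51, n = 3), 10.0 CPM in Ctr + 4-OHT (SD 2.1, n = 4) and 10.7 CPM in *Smg6*-iKO (SD 0.319, n = 4) and was not called in any comparison. *Mylip*, itself an LXR target, lay between 3.78 and 6.81 CPM in all libraries, with log2 fold changes between -0.0071 and 0.14.

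**Figure D3:**
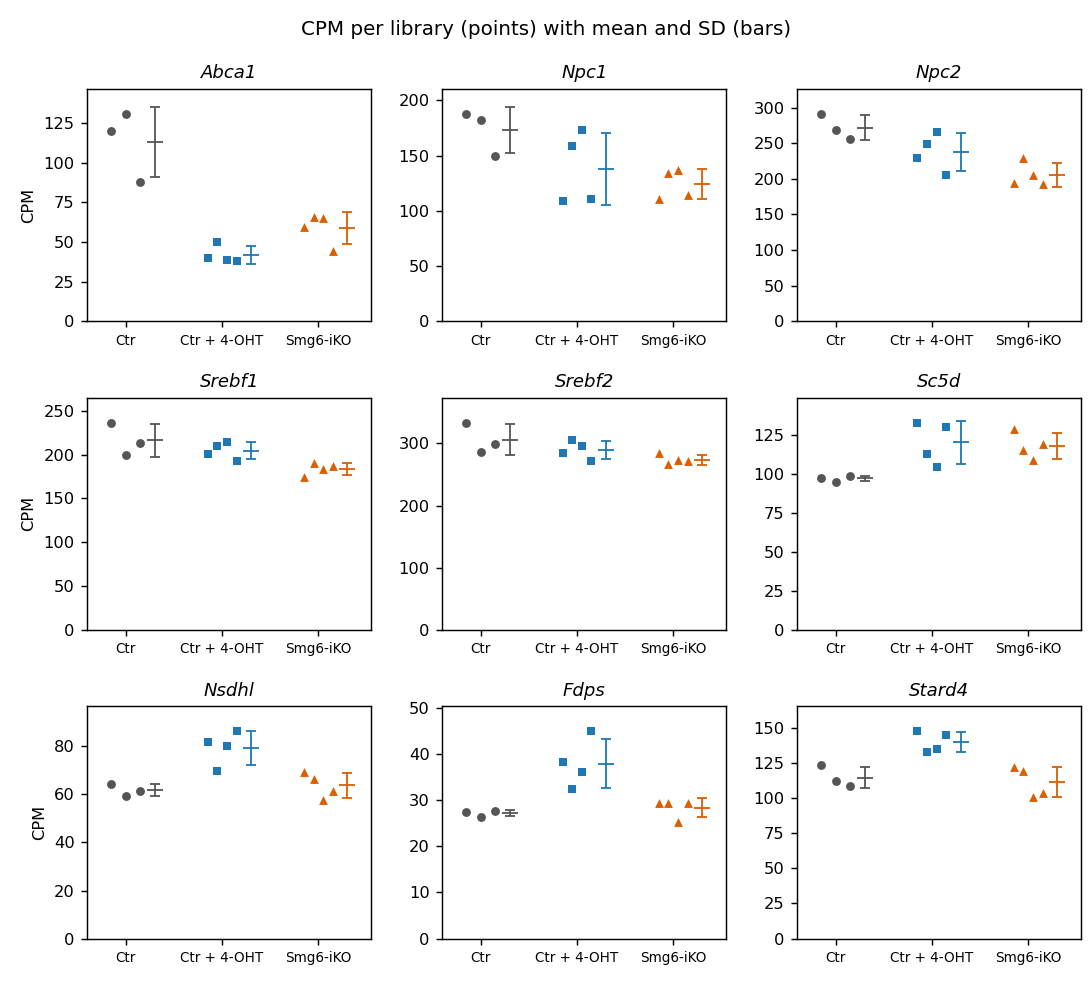
CPM per library (points) with the mean and SD (bars) in the 3 groups, on axes that start at 0, for 9 genes. *Abca1* has its lowest mean in Ctr + 4-OHT (41.5 CPM), *Npc1*, *Npc2* and *Srebf1* have theirs in *Smg6*-iKO (124, 206 and 184 CPM), and *Nsdhl*, *Fdps* and *Stard4* are highest in Ctr + 4-OHT.

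Among the regulators, *Srebf1* encodes SREBP-1, which chiefly drives fatty acid genes, and *Srebf2* encodes SREBP-2, which chiefly drives cholesterol genes. *Srebf1* had 237, 199.6 and 213 CPM in Ctr, 201, 210.0, 215 and 192 CPM in Ctr + 4-OHT, and 174.5, 190.3, 184 and 187 CPM in *Smg6*-iKO. Each *Smg6*-iKO library was below each library of both control groups. Against Ctr it fell by 0.23 on the log2 scale (SE 0.065, adjusted p = 0.0481 from edgeR; 0.00751 under the embryo block), a call kept in 2 of the 7 fits that left a library out, those without the Ctr library of SMH_132 or the *Smg6*-iKO library of SMH_128. It was also lost with upper-quartile normalization (adjusted p = 0.0639), at a minimum of 10 counts (0.0549) and when all 11 libraries were fitted together (0.0594). The value against Ctr + 4-OHT was -0.14 (SE 0.054, adjusted p = 0.222), and between the control groups -0.082 (SE 0.073, adjusted p = 0.789).

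*Srebf2* had 334, 286 and 299.8 CPM in Ctr, 284, 305, 296 and 272 CPM in Ctr + 4-OHT, and 285, 266, 273 and 271 CPM in *Smg6*-iKO. *Smg6*-iKO lay just below Ctr, with ranges that nearly met at 285.2 and 285.6 CPM, and overlapped Ctr + 4-OHT. Its log2 fold change against Ctr was -0.16 (SE 0.062, adjusted p = 0.126 from edgeR), and under the embryo block it fell by 0.18 (adjusted p = 0.0257). Without the Ctr library of embryo SMH_128 it was -0.093 (adjusted p = 0.431). The value was -0.068 against Ctr + 4-OHT (SE 0.055, adjusted p = 0.582) and -0.082 between the control groups (SE 0.074, adjusted p = 0.79).

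*Insig1*, both a brake on SREBP and a target of it, had a mean of 312.5 CPM in Ctr (SD 40.3, n = 3), 329 CPM in Ctr + 4-OHT (SD 16.97, n = 4) and 267 CPM in *Smg6*-iKO (SD 24.9, n = 4). It differed by -0.29 on the log2 scale from Ctr + 4-OHT (SE 0.071, adjusted p = 0.0858 from edgeR; DESeq2 adjusted p = 0.00825), without overlap, and -0.23 against Ctr (SE 0.092, adjusted p = 0.146; 0.00232 with the block). The value against Ctr was -0.11 without the Ctr library of embryo SMH_128 (adjusted p = 0.487). *Scap*, the sterol sensor and escort, had higher values in *Smg6*-iKO than in Ctr + 4-OHT, with 0.15 (SE 0.053, adjusted p = 0.191 from edgeR). Against Ctr the groups overlapped, with 0.105 (SE 0.058, adjusted p = 0.276 from edgeR). *Insig2*, the brake that SREBP does not induce, lay between 30.3 and 37.5 CPM in all 11 libraries and was not called. Of the 5 regulators, 1 was called against Ctr without the block, where 9.25% of all genes were, and 3 with it, where 21.4% were, *Srebf1*, *Srebf2* and *Insig1*, all lower in *Smg6*-iKO.

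The acetyl-CoA, fatty acid and first mevalonate steps held 7 genes. *Acly* had higher values in Ctr + 4-OHT than in Ctr (log2 fold change 0.24, SE 0.10, adjusted p = 0.583 from edgeR), as had *Acat2*, which joins acetyl-CoA units (0.38, SE 0.13, adjusted p = 0.471). *Hmgcs1*, with a mean of 1421 CPM in Ctr (SD 89.8, n = 3), 1808 CPM in Ctr + 4-OHT (SD 205, n = 4) and 1419 CPM in *Smg6*-iKO (SD 143, n = 4), had a log2 fold change of 0.35 between the control groups (SE 0.10, adjusted p = 0.391 from edgeR), without overlap. The kinases *Mvk* (0.28, SE 0.094, adjusted p = 0.456) and *Pmvk* (0.23, SE 0.08, adjusted p = 0.471) and the decarboxylase *Mvd* (0.24, SE 0.11, adjusted p = 0.619), which turn mevalonate into isopentenyl diphosphate, lay alike. Between the groups given 4-OHT the log2 fold changes of *Smg6*-iKO were -0.43 for *Acat2* (SE 0.12, adjusted p = 0.117 from edgeR), -0.34 for *Hmgcs1* (SE 0.099, adjusted p = 0.129) and -0.25 for *Mvk* (SE 0.08, adjusted p = 0.161). Against Ctr, the 6 genes other than *Fasn* lay between -0.061 and 0.073 and none was called.

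*Fasn*, the fatty acid synthase and a chief target of SREBP-1, took the other direction. It had 719, 688 and 797 CPM in Ctr, 599, 524, 541 and 658 CPM in Ctr + 4-OHT, and 603, 489, 576 and 663.5 CPM in *Smg6*-iKO. Each library given 4-OHT was below each Ctr library, and the 2 groups given 4-OHT overlapped. The log2 fold change against Ctr was -0.34 in Ctr + 4-OHT (SE 0.095, adjusted p = 0.351 from edgeR) and -0.33 in *Smg6*-iKO (SE 0.094, adjusted p = 0.0502), where under the embryo block it fell by 0.36 (adjusted p = 2.64e-04). Between *Smg6*-iKO and Ctr + 4-OHT it was 0.018 (SE 0.10, adjusted p = 0.951).

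*Idi1*, *Fdps* and *Ggps1* make the activated isoprene unit and the farnesyl and geranylgeranyl chains. *Fdps* had the largest positive fold change of the 32 genes between the control groups. Its values were 27.5, 26.4 and 27.6 CPM in Ctr, 38.3, 32.5, 36.0 and 44.9 CPM in Ctr + 4-OHT, and 29.3, 29.45, 25.3 and 29.3 CPM in *Smg6*-iKO. Each Ctr + 4-OHT library was above each library of the other groups. The log2 fold change was 0.48 between the control groups (SE 0.11, adjusted p = 0.174 from edgeR; DESeq2 adjusted p = 0.0108) and -0.41 in *Smg6*-iKO against Ctr + 4-OHT (SE 0.098, adjusted p = 0.0792; DESeq2 adjusted p = 0.00545). *Idi1*, at a mean of 5.83 CPM in Ctr (SD 0.554, n = 3), had 0.33 between the control groups (SE 0.12, adjusted p = 0.471 from edgeR). *Ggps1*, which leads away from sterols towards prenylated proteins, had a log2 fold change against the same Ctr libraries of 0.17 in Ctr + 4-OHT (SE 0.071, adjusted p = 0.584 from edgeR), where the groups overlapped, and of 0.20 in *Smg6*-iKO (SE 0.064, adjusted p = 0.0798), where it rose by 0.18 under the embryo block (adjusted p = 0.0175).

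The steps from farnesyl units to lanosterol run through *Fdft1*, *Sqle* and *Lss*. *Sqle*, squalene epoxidase, had a mean of 205 CPM in Ctr (SD 7.48, n = 3), 261 CPM in Ctr + 4-OHT (SD 29.2, n = 4) and 218.5 CPM in *Smg6*-iKO (SD 17.1, n = 4). Between the control groups its log2 fold change was 0.35 (SE 0.089, adjusted p = 0.29 from edgeR), and that of *Lss*, the cyclase that forms lanosterol, was 0.36 (SE 0.10, adjusted p = 0.351), both without overlap. *Fdft1*, squalene synthase, the enzyme that commits the pathway to sterols, had 0.11 (SE 0.11, adjusted p = 0.801), and -0.038 without the libraries of embryos SMH_125 and SMH_131. Against Ctr + 4-OHT, *Smg6*-iKO had -0.24 for *Fdft1* (SE 0.092, adjusted p = 0.221 from edgeR), -0.24 for *Sqle* (SE 0.086, adjusted p = 0.191) and -0.19 for *Lss* (SE 0.089, adjusted p = 0.317). Against Ctr, *Fdft1* alone of the 3 was called under the embryo block, where it fell by 0.17 (adjusted p = 0.0144), and it was not called without the block (-0.14, adjusted p = 0.318).

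After lanosterol, 8 enzymes remove methyl groups and move double bonds. All 8 had a log2 fold change above 0 between the control groups, 7 of them without overlap, and *Ebp* and *Dhcr7* had the smallest values. *Nsdhl*, the dehydrogenase that helps to remove the C4 methyl groups, had 64.3, 59.3 and 61.45 CPM in Ctr, 81.8, 69.6, 80.15 and 86.2 CPM in Ctr + 4-OHT, and 69.3, 66.6, 57.6 and 61.5 CPM in *Smg6*-iKO. Each Ctr + 4-OHT library exceeded each of the others, if only just, 69.62 against 69.27 CPM, where they came nearest. Its log2 fold change was 0.37 between the control groups (SE 0.08, adjusted p = 0.174 from edgeR; DESeq2 adjusted p = 0.0209) and -0.31 in *Smg6*-iKO against Ctr + 4-OHT (SE 0.08, adjusted p = 0.0988; DESeq2 adjusted p = 0.0147). Between the control groups *Msmo1*, the C4 methyl oxidase, had 0.38 (SE 0.085, adjusted p = 0.191 from edgeR; DESeq2 adjusted p = 0.021), *Cyp51*, the lanosterol demethylase, 0.33 (SE 0.081, adjusted p = 0.257; DESeq2 adjusted p = 0.038), *Tm7sf2*, a sterol reductase, 0.30 (SE 0.091, adjusted p = 0.391) and *Hsd17b7*, the C3 ketoreductase, 0.34 (SE 0.11, adjusted p = 0.449), each without overlap. From Ctr + 4-OHT, *Smg6*-iKO differed by -0.34 for *Msmo1* (SE 0.083, adjusted p = 0.0839 from edgeR), -0.29 for *Cyp51* (SE 0.086, adjusted p = 0.131) and -0.19 for *Tm7sf2* (SE 0.071, adjusted p = 0.22).

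*Ebp*, the sterol isomerase that tamoxifen-like drugs bind, had small differences. It had 14.3, 12.6 and 12.2 CPM in Ctr, 13.0, 13.1, 14.2 and 14.4 CPM in Ctr + 4-OHT, and 12.4, 11.7, 11.1 and 12.6 CPM in *Smg6*-iKO. The control groups overlapped, with a log2 fold change of 0.069 (SE 0.091, adjusted p = 0.858 from edgeR). In *Smg6*-iKO it was -0.18 against Ctr + 4-OHT (SE 0.078, adjusted p = 0.277), without overlap, and -0.12 against Ctr (SE 0.089, adjusted p = 0.413). *Dhcr7*, which makes cholesterol from its last precursor on one branch, had a mean of 90.02 CPM in Ctr (SD 5.14, n = 3), 99.6 CPM in Ctr + 4-OHT (SD 5.12, n = 4) and 94.3 CPM in *Smg6*-iKO (SD 4.67, n = 4). Its log2 fold change was 0.15 between the control groups (SE 0.066, adjusted p = 0.607 from edgeR), without overlap, 0.068 in *Smg6*-iKO against Ctr (SE 0.061, adjusted p = 0.513) and -0.067 against Ctr + 4-OHT (SE 0.056, adjusted p = 0.601). *Ebp* and *Nsdhl* lie on the X chromosome, and *Xist* exceeded 100 CPM in 1 of 3 Ctr, 2 of 4 Ctr + 4-OHT and 1 of 4 *Smg6*-iKO libraries.

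*Sc5d*, the desaturase that acts before *Dhcr7*, was the synthesis enzyme called against Ctr. It had 97.8, 95.3 and 98.8 CPM in Ctr, 133.2, 113, 104.5 and 130.6 CPM in Ctr + 4-OHT, and 128.9, 116, 109 and 119 CPM in *Smg6*-iKO. All 8 libraries given 4-OHT were above all 3 Ctr libraries, and the groups given 4-OHT overlapped. *Sc5d* rose by 0.28 on the log2 scale in *Smg6*-iKO (SE 0.061, adjusted p = 0.0208 from edgeR; 0.00157 with the block), a call kept in 3 of 7 fits that left a library out and lost without any of the 3 Ctr libraries or the *Smg6*-iKO library of SMH_133. In Ctr + 4-OHT against Ctr its value was 0.31 (SE 0.087, adjusted p = 0.367 from edgeR), and between both groups given 4-OHT it was -0.015 (SE 0.083, adjusted p = 0.948).

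The Ctr + 4-OHT libraries were not alike in these genes. The libraries of embryos SMH_125 and SMH_131 were both above those of SMH_126 and SMH_129 in 22 of the 32 genes (68.8%) and in 16 of the 18 enzymes from *Hmgcs1* to *Dhcr7* (88.9%), against 26.7% of all 18123 genes kept. The median log2 ratio of the 18 enzymes to the Ctr mean was 0.43 and 0.42 in embryos SMH_125 and SMH_131, and 0.15 and 0.20 in SMH_126 and SMH_129. The same 2 libraries had more neuron marker RNA, with sums over 5 markers of 2350 and 2150 CPM against 1700 and 1430 CPM in SMH_126 and SMH_129, and more mesenchyme marker RNA, with sums over 4 markers of 707 and 866 CPM against 350 and 303 CPM. They had less NPC marker RNA, 4400 and 4500 CPM against 4680 and 5390 CPM, and less of the oligodendrocyte lineage, 400.0 and 420.0 CPM against 436 and 538 CPM, and of astrocytes, 484 and 454 CPM against 506 and 490.0 CPM. Fewer or more cells of a type and less or more RNA per cell cannot be told apart in bulk RNA. The part of these markers in the result was not tested. The lower libraries, SMH_126 and SMH_129, were both above every Ctr library in 13 of the 18 enzymes (72.2%), against 11.1% of all genes, and in *Stard4*. They are the same genes in which the control groups did not overlap, so this count follows from that result and adds nothing to it.

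**Figure D4:**
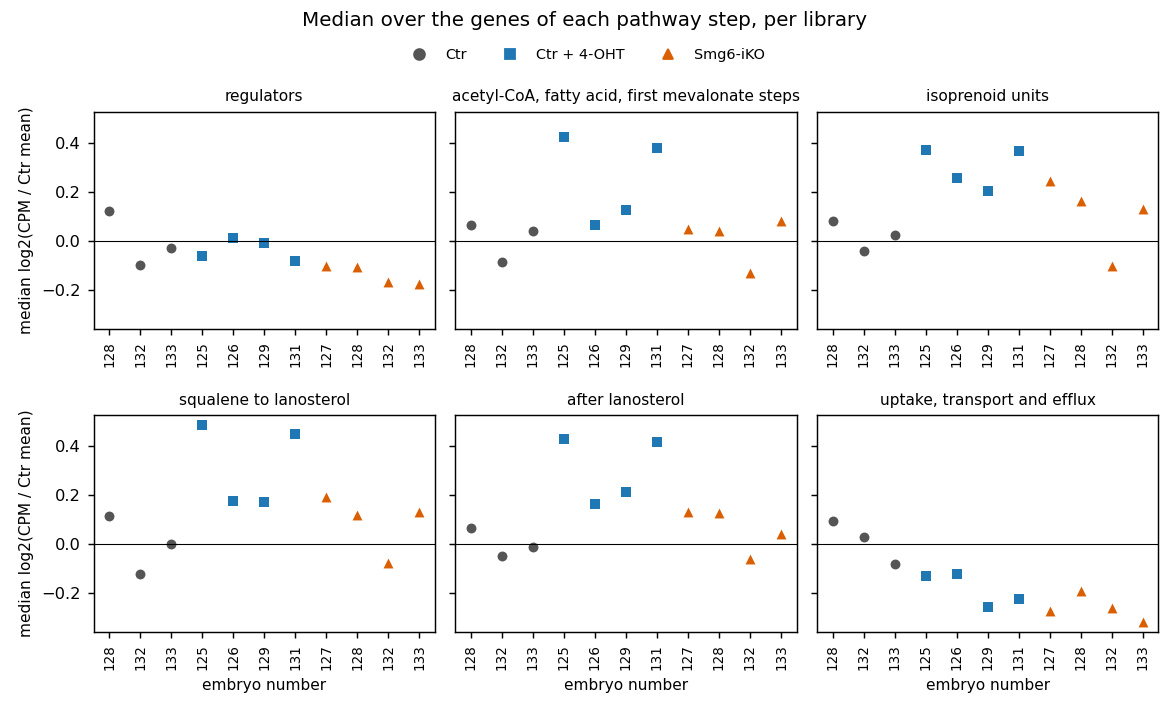
Median log2 ratio of CPM to the Ctr mean over the genes of each of the 6 pathway steps, 1 point per library, labelled by embryo. In the synthesis steps embryos SMH_125 and SMH_131 of Ctr + 4-OHT stand highest, and in uptake, transport and efflux all 8 libraries given 4-OHT lie below all 3 Ctr libraries.

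*Smg6*-iKO embryo SMH_132 was the lowest of its group in 23 of the 32 genes (71.9%) and in 17 of the 18 enzymes (94.4%), against 25.2% of all genes kept. Its Ctr culture was the lowest Ctr library in 13 of the 18 enzymes (72.2%), against 31.9% of all genes, and embryo SMH_128 was the highest Ctr library in 13 of the 18 (72.2%), against 32.7%. In both groups, then, the culture of embryo SMH_132 was the lowest for most of these enzymes. *Smg6*-iKO embryo SMH_132 also had the lowest mesenchyme marker sum of its group, 268 CPM against 544 to 1480 CPM. In *Smg6*-iKO against Ctr, 4 of 7 NPC markers were called, against 9.25% of all genes, with sums of 4270 to 4860 CPM against 4960 to 5150 CPM, and of the other marker lists 1 of 4 astrocyte markers. Neuron marker sums were higher, 1820 to 2050 CPM in *Smg6*-iKO against 1580 to 1710 CPM in Ctr without overlap. Whether these marker sums bear on the genes described was not tested.

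Within the embryos that gave both cultures, *Smg6*-iKO was compared with Ctr of the same animal. In 20 of the 32 genes the 3 embryos shared a direction (62.5%, against 51.7% of all genes). In 11 it was lower in all 3 embryos (34.4%, against 25.9% of all genes) and in 9 it was higher in all 3 (28.1%, against 25.8%). Among the 9 was *Idi1*, whose log2 ratio in embryo SMH_132 was 0.000152, in effect no difference. *Abca1* was lower by 0.87, 1.01 and 1.00 on the log2 scale in embryos SMH_128, SMH_132 and SMH_133, *Npc1* by 0.48, 0.41 and 0.39, and *Npc2* by 0.34, 0.39 and 0.40. *Fasn* differed by -0.56, -0.26 and -0.26, *Srebf1* by -0.31, -0.12 and -0.19, and *Insig1* by -0.26, -0.25 and -0.19. On the higher side stood *Sc5d* with 0.24, 0.20 and 0.27 and *Ggps1* with 0.20, 0.16 and 0.17. *Hmgcs1*, *Cyp51*, *Msmo1* and *Nsdhl* changed sign between embryos, with embryo SMH_132 below 0 and the other two above it.

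**Figure D5:**
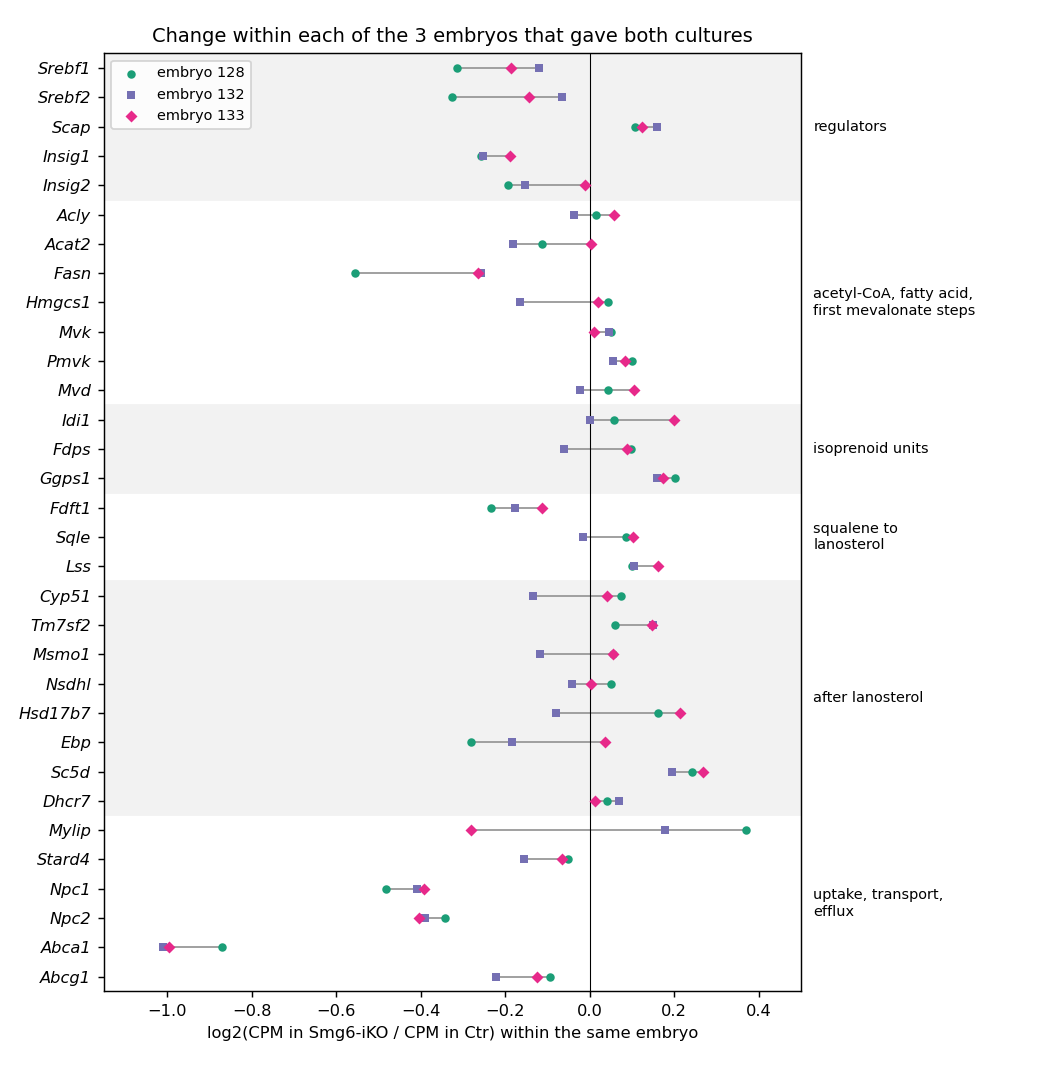
Log2 ratio of CPM in *Smg6*-iKO to CPM in Ctr of the same embryo for the 32 genes (green circles embryo SMH_128, purple squares SMH_132, pink diamonds SMH_133), with grey lines over their range. *Abca1*, *Npc1* and *Npc2* lie left of 0 in all 3 embryos, and of the 18 enzymes from *Hmgcs1* to *Dhcr7* 8 lie right of 0 in all 3, 1 (*Fdft1*) left of it in all 3 and 9 on both sides. *Idi1*, counted among the 8, lies almost at 0 in SMH_132 (0.000152).

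A wider list of the pathway held 48 further genes, of which 46 were found and all 46 were tested. Between Ctr + 4-OHT and Ctr, edgeR called 0 of the 46 (0.221% of all genes), with a median log2 fold change of -0.016. In *Smg6*-iKO against Ctr + 4-OHT it called 2 of the 46 (1.17% of all genes), both lower, *Acsl3*, which activates fatty acids (-0.29, SE 0.057, adjusted p = 0.0469), and *Acss2*, which makes acetyl-CoA from acetate (-0.43, SE 0.083, adjusted p = 0.0403). In *Smg6*-iKO against Ctr 1 of the 46 was called higher and 6 lower, where 4.27% and 4.98% of all genes were, and under the embryo block 13 of the 46 were called, where 21.4% of all genes were. *Soat1*, which esterifies cholesterol for storage, fell by 0.39 (SE 0.055, adjusted p = 0.00349 from edgeR). *Tmem97*, a sterol-responsive membrane protein, fell by 0.31 (SE 0.07, adjusted p = 0.0226) and *Mid1ip1*, a partner of acetyl-CoA carboxylase, by 0.25 (SE 0.06, adjusted p = 0.0278). *Abca7*, a lipid transporter related to *Abca1*, rose by 0.35 (SE 0.07, adjusted p = 0.0157). With each library left out, *Soat1* was called in 7 of 7 fits, *Abca7* in 4, *Mid1ip1* in 2 and *Tmem97* in 1, while *Acss2* was called in 2 of 8 and *Acsl3* in 0 of 8. The list of 8 genes named for LXR and its targets also held the RXR partners of the receptors, so it does not measure LXR targets alone. The 8 had 1 log2 fold change above 0 between the control groups (median -0.069, 51.2% of all genes above 0) and 0 called. In *Smg6*-iKO against Ctr + 4-OHT 7 of them lay above 0 (median 0.11, 52.8% of all genes) and 0 were called, and against Ctr 3 did (median -0.0069, 51.0% of all genes) and 1, *Abca7*, was called higher.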

How the data were processed

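Libraries were stranded and ribosome-depleted, with 50-base reads. The authors mapped reads to GRCm38 with STAR 2.5.4b and deposited unnormalized counts per Ensembl 92 gene from featureCounts 1.5.0 (reads at one position and in one gene). Counting was strand-aware. Groups came from the labels. A GENCODE M21 table gave symbols for 53620 of the 53801 identifiers.

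The 3 comparisons were run in R 4.3.3 with edgeR 4.0.16 (filterByExpr, TMM, quasi-likelihood test, Benjamini-Hochberg over all genes tested, threshold 0.05), each on its own 2 groups, where the study used DESeq2. SE was taken from the log2 fold change and its F statistic (absolute value over root F). The fit was tested on simulated data. CPM were scaled over 18123 genes kept in all 11 libraries. Between 26418249 and 33756875 counts per library limit the precision, and p-values measure the spread between embryos' cultures. The main fit of *Smg6*-iKO against Ctr treated cultures of the same embryo as independent. Only the embryo block took that pairing into account. Per-library values are given for genes called in any comparison, for those with the smallest p up to 8 and for both *Srebf* genes, and fold changes where the unadjusted p was under 0.05 and for *Srebf1*, *Srebf2*, *Ebp* and *Dhcr7*. *Fasn* and *Ebp* per library, and some fold changes above that p, were added after their values were seen. Related genes named are at most 6 called ones by smallest p. The genes and lists were chosen with earlier results of these data known.

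For Ctr and *Smg6*-iKO of the same embryo, deviations from the group means correlated with r of 0.328, 0.399 and 0.425 across genes, against -0.27 to 0.095 for different embryos, so the embryo block is a pairing by animal. Alternatives were DESeq2's size factors, upper-quartile normalization, no filter, a minimum of 10 counts, all 11 libraries in one fit, limma-voom (limma 3.58.1), the Wald test of DESeq2 1.42.0, a length correction (loess span 0.3), the embryo block alone and with that correction, and each library left out. Leaving out embryos SMH_125 and SMH_131 of Ctr + 4-OHT together was chosen after seeing the data. Promoters are RefSeq's on GRCm38.p6.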

Additional observations from a re-analysis of the deposited data

Results flagged for a closer look

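Of 64 groups of 4 libraries looked at (32 genes in Ctr + 4-OHT and in *Smg6*-iKO), 5 held a library whose gap to its nearest neighbour exceeded Dixon's limit for 4 samples, where chance gives about 1 in 20. *Abca1* had 49.97 CPM in Ctr + 4-OHT embryo SMH_126 against 37.9 to 39.6 CPM in the other libraries of the group. *Fdps* had 25.3 CPM in *Smg6*-iKO embryo SMH_132 against 29.3 to 29.45 CPM, in the library that was lowest in most synthesis genes. *Insig2* had 36.5 CPM in *Smg6*-iKO embryo SMH_127 against 30.3 to 31.1 CPM, and *Abcg1* had 11.2 CPM there against 10.53 to 10.6 CPM. *Idi1* had 6.72 CPM in Ctr + 4-OHT embryo SMH_129 against 7.53 to 7.58 CPM.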

How the results depend on the processing

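No fold change with an unadjusted p under 0.05, or of *Srebf1*, *Srebf2*, *Ebp* or *Dhcr7*, turned its direction under any alternative, while 19 others did. Between the groups given 4-OHT these were *Fasn* (-0.057 to 0.133), *Sc5d* (-0.082 to 0.12), *Ggps1* (-0.012 with the length correction), *Abcg1* (-0.036 without SMH_129 of Ctr + 4-OHT) and *Mvd* (0.019 without SMH_125 and SMH_131). Between the control groups they were *Fdft1* (-0.038 without SMH_125 and SMH_131), *Mylip* (-0.21 to 0.22), *Scap* and *Insig2*, and against Ctr *Acly*, *Acat2*, *Hmgcs1*, *Mvk*, *Mvd*, *Fdps*, *Cyp51*, *Msmo1*, *Nsdhl* and *Stard4*, each with a value near 0. Between Ctr + 4-OHT and Ctr, 356 of 368 values of the first kind kept their side of the threshold (23 results), in *Smg6*-iKO against Ctr 155 of 187 (11 results) and against Ctr + 4-OHT 299 of 323 (19 results).

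In *Smg6*-iKO against Ctr + 4-OHT, 0 of the 32 genes were called, but 7 without the filter on low counts, 4 with all 11 libraries in one fit, 9 with DESeq2's Wald test and 3 with the length correction. The calls over all genes were 206, and 418, 484 and 873 under the first 3 of these, 250 with the length correction and 313 without embryos SMH_125 and SMH_131 of Ctr + 4-OHT. With each library left out they lay between 66 and 174, and those of the 32 between 0 and 1. In *Smg6*-iKO against Ctr, 1663 genes were called, and 2714 without the filter and 796, with 2 of the 32, in the fit of all libraries. The block, which pairs cultures by animal, gave 3854 genes and 10 of the 32, or 4076 and 10 with the length correction as well. With each library left out there were 570 to 2524 genes and 2 to 6 of the 32. Between Ctr + 4-OHT and Ctr, 39 genes and 1 of the 32 were called, and 198 and 8 without the filter, 60 genes in the fit of all libraries, and 169 and 5 with DESeq2. With each library left out there were 5 to 54 genes and 0 to 1 of the 32, and the median of the 32 was 0.10 without embryos SMH_125 and SMH_131. When 1 library was left out, 12, 22 and 10 of the 32 values moved over 1.5 times in *Smg6*-iKO against Ctr + 4-OHT, in *Smg6*-iKO against Ctr and between the control groups, 0 of them called. Among these were *Srebf1* (-0.14 to -0.014) and *Srebf2* (-0.13 to -0.017) between the control groups, *Ebp* there (0.033 to 0.14) and against Ctr (up to -0.050), and *Dhcr7* against Ctr (down to 0.011). Against Ctr, *Fasn* was called without the filter, by limma-voom, by DESeq2, with the length correction and in 2 of 7 fits without a library, *Insig1* without the filter (adjusted p = 0.0225), and *Ggps1* with upper-quartile normalization (0.0418) but not when the length correction joined the block. Beside *Srebf1*, the fit of all libraries lost the calls of *Sc5d* (adjusted p = 0.0759) and *Npc1* (0.0959). The cause of these shifts was not tested. The block changed 5 further calls of the 32 (*Srebf2*, *Insig1*, *Fasn*, *Fdft1* and *Ggps1*), and no call was lost under it. Without the block, *Fdft1* against Ctr (-0.14) was -0.053 without the Ctr library of SMH_128, -0.22 without that of SMH_132 and -0.083 without the *Smg6*-iKO library of SMH_132.

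Counts per gene do not separate isoforms, and mRNA levels do not give enzyme activity or sterol content. With 3 or 4 cultures a group, edgeR called few of the differences seen in the synthesis genes, and a missed threshold does not show equal levels.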
